A study of Homo sapiens with 6 samples.

Results

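The genes described here are SUMO2 and SUMO3, which encode small ubiquitin-like modifiers, and the enzymes that attach or remove them: SAE1, UBA2, PIAS1, PIAS3, SENP1 and SENP3. These 8 genes were chosen by name, with earlier results of the same comparison known, so their values below are a description and no test of this choice. All 8 were found among the 20061 rows of the deposited table, and all 8 are among the 11952 rows that the authors tested. The cells were HEYA8, an established human ovarian cancer cell line labelled low grade serous, and they were profiled by sequencing of polyadenylated RNA. The shETS1 group (3 samples) stably expressed a short hairpin RNA directed at ETS1, the founding member of the ETS transcription factors. The shLuciferase group (3 samples) expressed a hairpin against luciferase, a gene that human cells lack, and served as the negative control. Both hairpins came from a lentiviral construct, and both groups were kept in puromycin with no other treatment.

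SUMO proteins are joined to lysines of other proteins by a short enzyme chain. The SAE1 and UBA2 proteins together form the activating enzyme (E1), a conjugating enzyme (E2) takes the modifier over from it, and ligases (E3) such as the PIAS proteins help to place it on substrates. SENP proteases trim the SUMO precursors and take SUMO off again. SUMO2 and SUMO3 are close paralogues that readily form chains. Many transcription factors are SUMO-modified, and ETS1 is itself a described substrate.

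The deposited file holds a single FPKM per gene and group (sequenced fragments relative to transcript length and to all mapped fragments), so each level below is the authors' group value, without a spread between samples or an n. The number of reads per sample is unknown from such values. The labels do not say that the 3 samples per group came from separate cultures, and the authors' p-values may then measure technical spread only. In such bulk RNA, fewer cells of a type and less RNA per cell cannot be told apart. Nor can lower ETS1 be told apart from other differences between the hairpin groups. The targeted gene, ETS1, was 2.32-fold lower, at 17.9 FPKM in shETS1 cells and 41.4 FPKM in shLuciferase cells, and it was called in the authors' deposited table (q = 0.00964). PAX8, a marker of the Müllerian lineage, was at 76.8 FPKM in shETS1 and 79.7 FPKM in shLuciferase, and the epithelial keratin KRT7 was at 910 FPKM in shETS1 and 1187 FPKM in shLuciferase. EPCAM was low, at 1.82 FPKM in shETS1 and 1.71 FPKM in shLuciferase, and MUC16 was listed at 0 in shETS1 and at 0.000625 FPKM in shLuciferase. The leukocyte gene PTPRC was listed at 0 in both groups.

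The coding sequences of SUMO3 and SUMO2 are shown because a read count can separate these paralogues only where their letters differ. Both are written 5′ to 3′ from the start codon, as GENCODE 29 (GRCh38) gives them, over bases 1 to 278 of 312 in SUMO3 and 1 to 281 of 288 in SUMO2, with SUMO3 on chromosome 21 and SUMO2 on chromosome 17. Capitals mark the bases that differ, and in SUMO2 also 3 bases that SUMO3 lacks.
SUMO3: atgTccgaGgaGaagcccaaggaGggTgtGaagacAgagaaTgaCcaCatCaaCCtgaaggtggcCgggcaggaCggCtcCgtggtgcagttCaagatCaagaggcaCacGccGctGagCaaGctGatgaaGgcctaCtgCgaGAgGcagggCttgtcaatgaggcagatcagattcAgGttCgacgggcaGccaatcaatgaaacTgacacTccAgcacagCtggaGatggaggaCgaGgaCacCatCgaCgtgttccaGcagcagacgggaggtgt
SUMO2: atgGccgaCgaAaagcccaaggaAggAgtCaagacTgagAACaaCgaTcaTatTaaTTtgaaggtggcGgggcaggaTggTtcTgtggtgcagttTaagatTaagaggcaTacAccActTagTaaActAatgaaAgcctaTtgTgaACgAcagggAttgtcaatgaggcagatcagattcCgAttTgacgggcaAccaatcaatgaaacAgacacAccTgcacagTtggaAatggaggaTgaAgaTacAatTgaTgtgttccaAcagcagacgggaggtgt

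Over the 278 aligned bases the sequences were 82.4% identical, with 229 identical and 49 different bases, and 44 of the 49 differences fell on the third base of a codon. The longest run of identical letters in the coding sequences was 24 bases. The whole SUMO3 transcript, 1807 bases long, had no window of 50 bases in common with any transcript of another gene in the same annotation. The SUMO2 transcript shared 8.15% of its 50-base windows with transcripts of other genes, most of all with SUMO2P1, which is among 18 annotated pseudogenes named after SUMO2. No pseudogene there is named after SUMO3. How the authors' pipeline placed reads that fit several genes is not given, so the level of SUMO2 carries that uncertainty.

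Of the paired modifiers, SUMO3 had the larger difference between the groups. It stood at 138 FPKM in shETS1 cells, against 48.5 FPKM in shLuciferase cells. SUMO3 was thus 2.85-fold higher in shETS1 (log2 fold change 1.51). For it the authors' deposited table lists p = 5e-05 and q = 0.00964. That p-value is the smallest the table holds and the one given for 62 called rows. SUMO3 (chromosome 21, 46225532 to 46238044, hg19) ranked 14 of the 10676 tested rows with a mean of at least 1 FPKM when these were ordered by log2 fold change. None of the 1457 other tested rows within 2-fold of its mean level had a larger change in either direction. The 3 of those rows nearest to it in log2 fold change, over these 2 group values only, were COL6A1 (1.37), TMEM158 (1.37) and IL1B (1.23).

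SUMO2 was the more abundant of the pair and did not pass the authors' test. SUMO2 (chromosome 17, 73163825 to 73179098, hg19) was at 227 FPKM in shETS1 and 207 FPKM in shLuciferase, a log2 fold change of 0.13, for which the authors' deposited table lists q = 1.00. Of the 699 other tested rows of like level, 54.8% had a larger absolute change. SUMO4 is marked as not tested, at 0.215 FPKM in shETS1 and 0.168 FPKM in shLuciferase, and its locus overlaps that of TAB2.

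The balance of SUMO3 and SUMO2 transcripts therefore differed between the groups. SUMO3 made up 37.9% of the summed FPKM of SUMO2 and SUMO3 in shETS1 cells and 19.0% in shLuciferase cells. SUMO2 exceeded SUMO3 by a ratio of 1.64 in shETS1 and 4.27 in shLuciferase. The sum of both was 365 FPKM in shETS1 and 255 FPKM in shLuciferase, a ratio of 1.43. Of the difference of 110.1 FPKM between these sums, SUMO3 accounted for 89.8 FPKM (81.6%) and SUMO2 for 20.3 FPKM. FPKM is scaled to transcript length, but the level of SUMO2 carries the uncertainty given above, and so do these shares, ratios and sums. They are also of transcripts and not of protein.

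**Figure D1:**
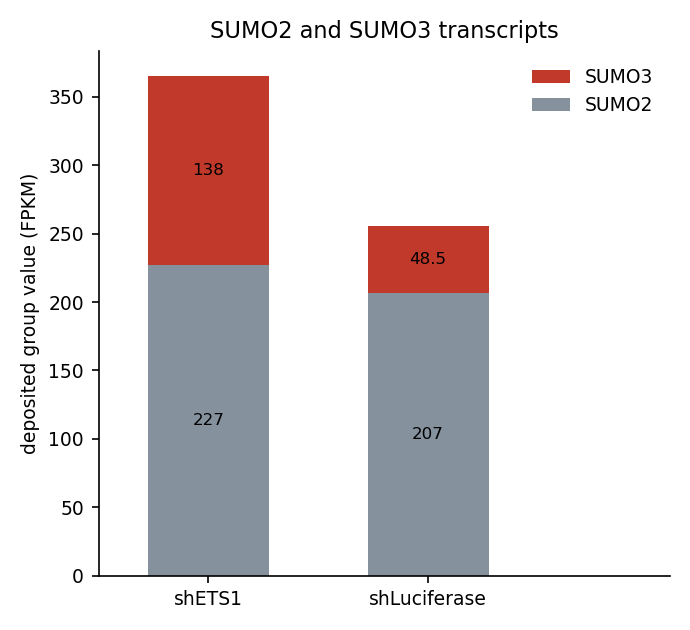
Stacked bars of the deposited group values (FPKM, vertical axis) of SUMO2 and SUMO3 in shETS1 and shLuciferase cells. The SUMO3 segment is 138 FPKM in shETS1 and 48.5 FPKM in shLuciferase, while the SUMO2 segment is 227 FPKM in shETS1 and 207 FPKM in shLuciferase. There are no error bars because the table holds a single value per group.

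The subunits of the activating enzyme did not pass the test. SAE1 (chromosome 19, 47634080 to 47713893, hg19) was at 116 FPKM in shETS1 and 121 FPKM in shLuciferase, a log2 fold change of -0.07. UBA2, the catalytic subunit (chromosome 19, 34919268 to 34960798, hg19), was at 43.3 FPKM in shETS1 and 35.1 FPKM in shLuciferase, a log2 fold change of 0.30 with a p-value of 0.190 in the authors' deposited table. The ratio of SAE1 to UBA2, whose products act as a pair, was 2.67 in shETS1 and 3.46 in shLuciferase.

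None of the PIAS ligases passed the test, which 0.812% of all tested rows passed. PIAS1 (chromosome 15, 68346572 to 68480404, hg19), a ligase also described as an inhibitor of cytokine signalling, was at 6.36 FPKM in shETS1 and 6.26 FPKM in shLuciferase. PIAS3 (chromosome 1, 145575290 to 145590461, hg19), an inhibitor of STAT3, was at 12.4 FPKM in shETS1 and 12.6 FPKM in shLuciferase. Their log2 fold changes were 0.02 and -0.03, and of the other tested rows of like level 93.3% had larger absolute changes than PIAS1 and 92.4% larger ones than PIAS3. The deposited locus of PIAS3 is shared with NUDT17, at 1.98 FPKM in shETS1 and 2.31 FPKM in shLuciferase. PIAS4 was at 14.04 FPKM in shETS1 and 15.2 FPKM in shLuciferase, and PIAS2 at 1.90 FPKM in shETS1 and 2.12 FPKM in shLuciferase, a log2 fold change of -0.16. With the trend on transcript GC content described below removed, PIAS1 was at -0.14 and PIAS2 at -0.36. The 4 PIAS genes together summed to 34.7 FPKM in shETS1 and 36.2 FPKM in shLuciferase.

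The SENP proteases did not pass the test either, and the deposited loci of 2 of them are shared with other genes. SENP1, which trims SUMO precursors and removes SUMO from proteins (chromosome 12, 48436757 to 48540187, hg19), was at 3.16 FPKM in shETS1 and 2.37 FPKM in shLuciferase. Its log2 fold change of 0.41 was the largest among the chosen genes after SUMO3, and its p-value in the authors' deposited table was 0.577. The deposited locus of SENP1 also holds PFKM, at 29.6 FPKM in shETS1 and 32.6 FPKM in shLuciferase. The SENP1 transcript itself had no 50-base window in common with a transcript of another gene. SENP3, a nucleolar protease that prefers SUMO2 and SUMO3 (chromosome 17, 7465309 to 7482324, hg19), was at 11.4 FPKM in shETS1 and 12.04 FPKM in shLuciferase, a log2 fold change of -0.08. It shares its locus with EIF4A1, at 795 FPKM in shETS1 and 816 FPKM in shLuciferase, and 58.2% of the 50-base windows of its transcript occur in transcripts of other genes, most in the read-through SENP3-EIF4A1. The level of SENP3 is therefore uncertain.

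**Figure D2:**
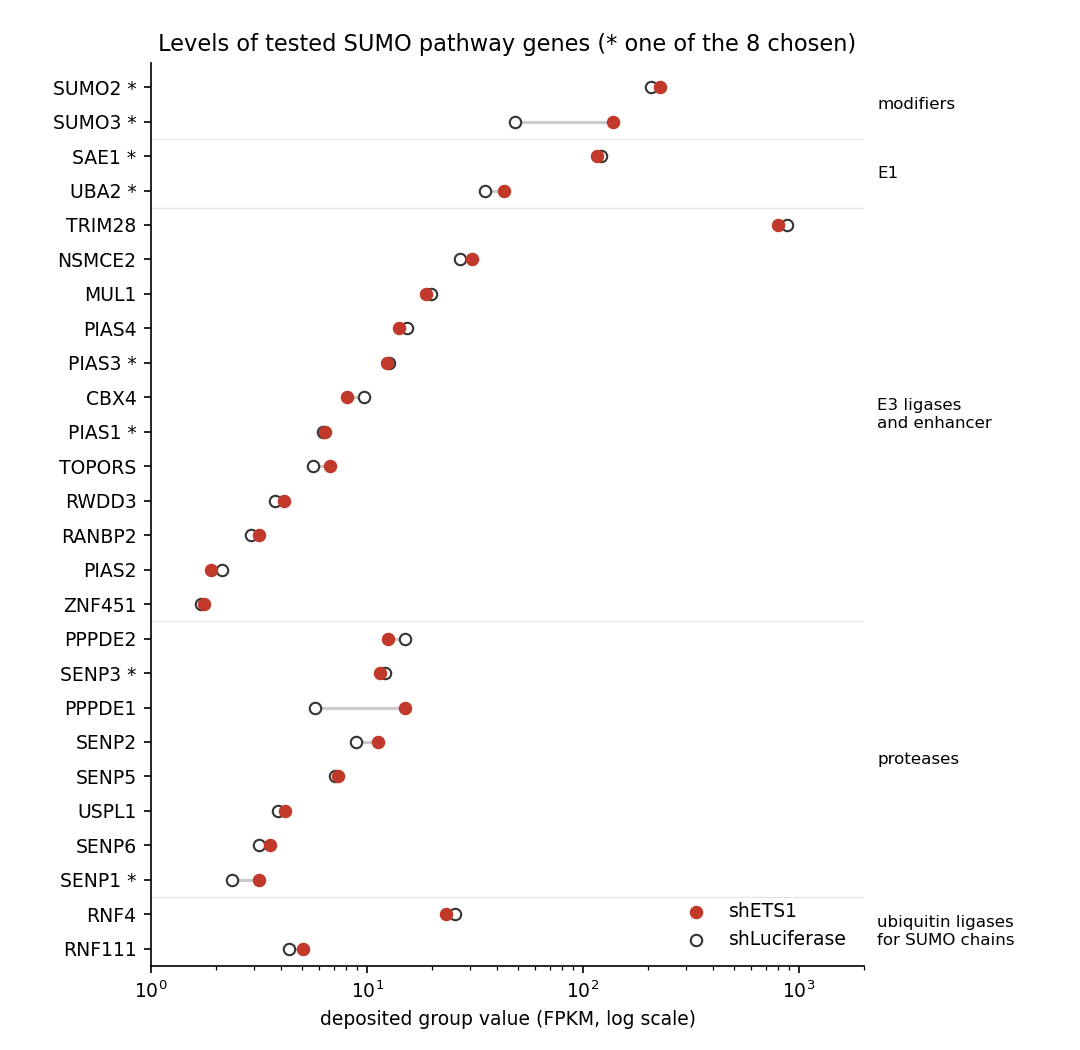
Deposited group values (FPKM, horizontal log axis) of tested modifiers, enzymes and chain-reading ligases of the SUMO pathway, ordered by role and level, with shETS1 as filled red circles and shLuciferase as open circles. Asterisks mark the 8 chosen genes. The circles lie far apart for SUMO3 (138 FPKM in shETS1 and 48.5 FPKM in shLuciferase) and PPPDE1 (15.0 FPKM in shETS1 and 5.74 FPKM in shLuciferase), while those of the other genes lie within 1.33-fold of each other.

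Of the 8 genes, 1 (SUMO3) had a q of at most 0.05 in the authors' deposited table and is termed called here; it was higher in shETS1. Over all tested rows 0.812% were called (97 of 11952), and 0.544% were called higher. Nothing is read from that comparison, because the genes were chosen with this contrast known. The median log2 fold change of the 8 was 0.08, against 0.02 over the 10676 tested rows with a mean of at least 1 FPKM, with 5 genes above 0 and 3 below. Of these, PIAS1, PIAS3 and SENP3 changed sign once the GC trend described below was removed. The 7 genes that were not called differed by at most 1.33-fold. No row of the whole table with a change under 1.83-fold was called, so differences of the size seen in these 7 genes lie below any that the authors' test called.

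**Figure D3:**
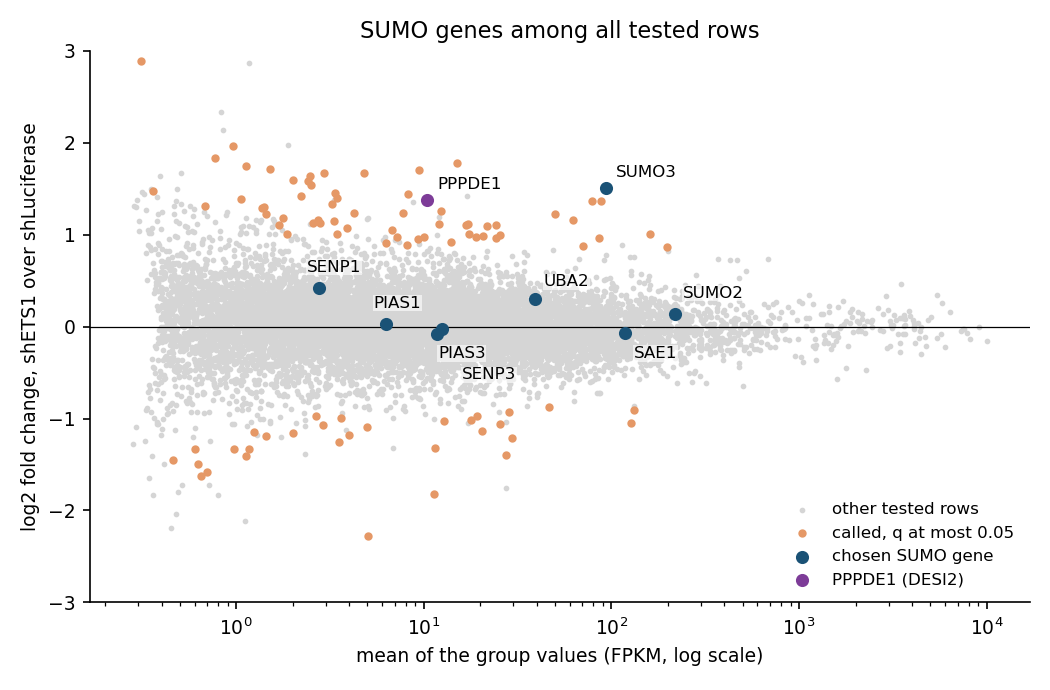
Log2 fold change of shETS1 over shLuciferase (vertical axis) against the mean of the group values (FPKM, horizontal log axis) for 11948 of 11952 tested rows, leaving out 4 rows outside the axes, 1 of them called. Orange points are called rows, blue points the 8 chosen SUMO genes and the purple point PPPDE1. SUMO3 lies at 1.51 and the other blue points between -0.08 and 0.41.

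A wider list of the pathway was examined, with 35 genes in the table and 33 tested. Of these 33 genes 2 passed the test in the authors' deposited table, SUMO3 and PPPDE1, and both were higher in shETS1. That is 6.06% of the list, against 0.812% of all tested rows, and the list was chosen with these results known, so nothing is read from that difference. PPPDE1, now named DESI2, belongs to a family of isopeptidases whose relative DESI1 removes SUMO from its substrates. It stood at 15.0 FPKM in shETS1 and 5.74 FPKM in shLuciferase, 2.60-fold or 1.38 on the log2 scale, and the authors' deposited table lists q = 0.00964. DESI1 itself, listed as PPPDE2, was at 12.5 FPKM in shETS1 and 15.0 FPKM in shLuciferase and did not pass. The ratio of PPPDE1 to PPPDE2 was 1.19 in shETS1 and 0.382 in shLuciferase. Of the 8 tested genes that the list holds as proteases, PPPDE1 was the only one called. Whether its product removes SUMO was not tested here. SENP2 was at 11.3 FPKM in shETS1 and 8.84 FPKM in shLuciferase, and SENP5 at 7.35 FPKM in shETS1 and 7.09 FPKM in shLuciferase. SENP6, which edits SUMO chains, was at 3.56 FPKM in shETS1 and 3.15 FPKM in shLuciferase, and USPL1 at 4.16 FPKM in shETS1 and 3.85 FPKM in shLuciferase. SENP7 is marked as not tested, at 0.351 FPKM in shETS1 and 0.244 FPKM in shLuciferase.

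None of the 12 tested ligases and their enhancers was called, and in none was the unadjusted p-value of the authors' deposited table below 0.300. With 0.812% of all tested rows called, a count of 0 among so few genes does not set them apart. The most abundant was TRIM28, a corepressor with SUMO ligase activity, at 801 FPKM in shETS1 and 880 FPKM in shLuciferase. RANBP2, the ligase of the nuclear pore, was at 3.14 FPKM in shETS1 and 2.90 FPKM in shLuciferase, and its partner RANGAP1, the first SUMO substrate described, was at 283 FPKM in shETS1 and 314 FPKM in shLuciferase. RNF4, a ubiquitin ligase that recognises SUMO chains, was at 23.3 FPKM in shETS1 and 25.5 FPKM in shLuciferase. PML, the scaffold of the SUMO-rich nuclear bodies, was at 56.0 FPKM in shETS1 and 54.0 FPKM in shLuciferase, while SP100, another protein of these bodies, was at 27.5 FPKM in shETS1 and 32.9 FPKM in shLuciferase. DAXX was at 36.3 FPKM in shETS1 and 43.3 FPKM in shLuciferase, but its deposited locus lies on an alternative haplotype of chromosome 6, so its level is uncertain. Over the 33 tested genes the median log2 fold change was 0.05, with 19 above 0 and 14 below, and SUMO3 and PPPDE1 were the 2 with an absolute value of at least 0.5. These signs are of values with the GC trend described below left in, and signs changed in both directions once it was removed. RANBP2 went from 0.11 to -0.09, and PIAS4 from -0.12 to 0.02.

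Other ubiquitin-like modifiers and their enzymes were set beside the SUMO genes. Of 22 such genes, all tested, none was called in the authors' deposited table and none had an unadjusted p-value below 0.05, where the smallest was 0.0826. With 0.812% of all tested rows called, a count of 0 among so few genes does not set them apart. Their median log2 fold change was 0.09, and the range was -0.45 to 0.44. The ends of that range were UBE2L6, the E2 for ISG15, at 15.1 FPKM in shETS1 and 20.5 FPKM in shLuciferase, and NAE1, an E1 subunit for NEDD8, at 20.4 FPKM in shETS1 and 15.1 FPKM in shLuciferase. ATG12, a modifier of autophagy, was at 8.77 FPKM in shETS1 and 6.79 FPKM in shLuciferase, and UBA3, the partner of NAE1, at 18.03 FPKM in shETS1 and 14.2 FPKM in shLuciferase. With the trend on GC content described below removed, log2 fold changes shrank from 0.44 to 0.26 for NAE1 and from 0.37 to 0.13 for ATG12. That of UBA3 went from 0.34 to 0.14, and that of UBE2L6 from -0.45 to -0.36.

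The neighbours of SUMO3 on chromosome 21 were examined because COL6A1, which was also called, lies 1.16 Mb from it. The window used therefore held a row known to be called, and nothing is read from the count of called neighbours. Of 40 other tested rows within 2 Mb of SUMO3, COL6A1 was the single one called, while 0.812% of all tested rows were called. COL6A1 encodes a chain of collagen VI and stood at 114 FPKM in shETS1 and 44.0 FPKM in shLuciferase, 2.58-fold. Between SUMO3 and COL6A1 lie 8 tested rows that overlap neither, none of them called, with log2 fold changes from -0.32 to 0.31. Given that share, a count of 0 among so few rows does not set them apart. The nearest tested rows on each side were chosen after their values were seen. UBE2G2, an E2 for ubiquitin whose locus ends 3.78 kb from SUMO3, was at 31.7 FPKM in shETS1 and 27.996 FPKM in shLuciferase. PTTG1IP, 31.5 kb away on the other side, was at 180 FPKM in shETS1 and 145 FPKM in shLuciferase. The median log2 fold change of the 37 neighbours that averaged 1 FPKM or more was -0.09, with 16 above 0. COL6A2, next to COL6A1 and also chosen after its value was seen, was at 172 FPKM in shETS1 and 116 FPKM in shLuciferase, and the authors' deposited table lists q = 0.529.

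**Figure D4:**
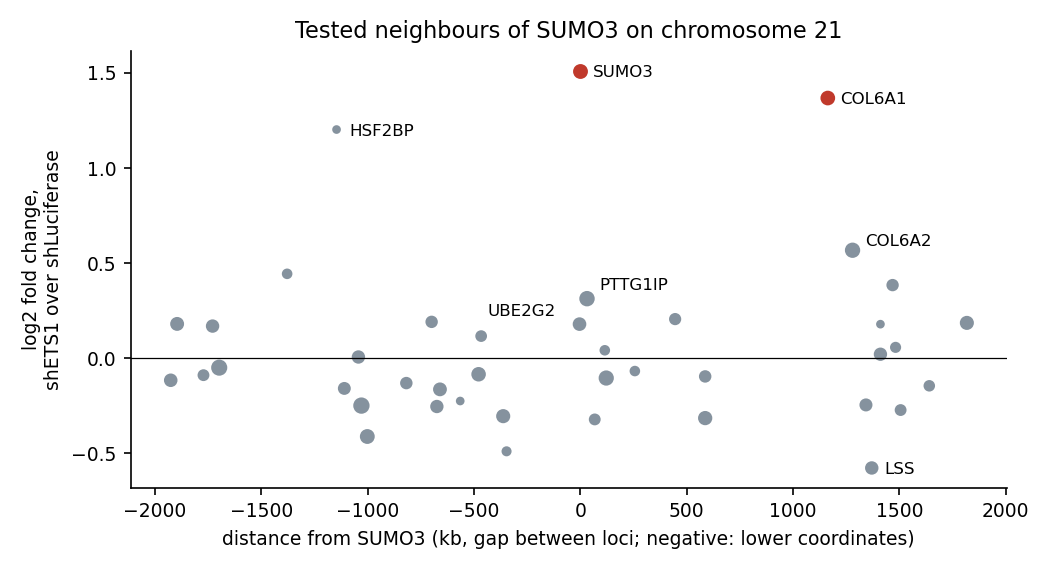
Log2 fold change of shETS1 over shLuciferase (vertical axis) of SUMO3 and the 40 other tested rows within 2 Mb, against the gap between each locus and SUMO3 in kb (horizontal axis, negative towards lower coordinates); larger points have higher mean FPKM. Red points, SUMO3 and COL6A1, are the called rows. The flanking genes UBE2G2 and PTTG1IP lie at 0.18 and 0.31.

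Fold changes in this table moved with the base composition of the transcripts. Over the 9737 tested genes that averaged 1 FPKM or more and had a GC value, the rank correlation of GC content with log2 fold change (Spearman's rho) was -0.47, across genes that share libraries and are not independent replicates. The median log2 fold change was 0.25 in the decile of genes poorest in GC and -0.16 in the decile richest in GC. SUMO3, at 49.2% GC, lay close to the median of 49.7%, and its log2 fold change was 1.505 once a cubic trend on GC content was removed. PPPDE1, at 42.1% GC, had 1.24 after that step. Other genes low in GC moved as well. SENP1 (42.0% GC) had 0.27 in place of 0.41, UBA2 (44.0% GC) 0.20 in place of 0.30, and SUMO2 (44.2% GC) 0.04 in place of 0.13. PIAS1 took the opposite sign, at -0.14, and so did PIAS3, at 0.03, and SENP3, at 0.02, so no direction can be given for these 3 genes.

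**Figure D5:**
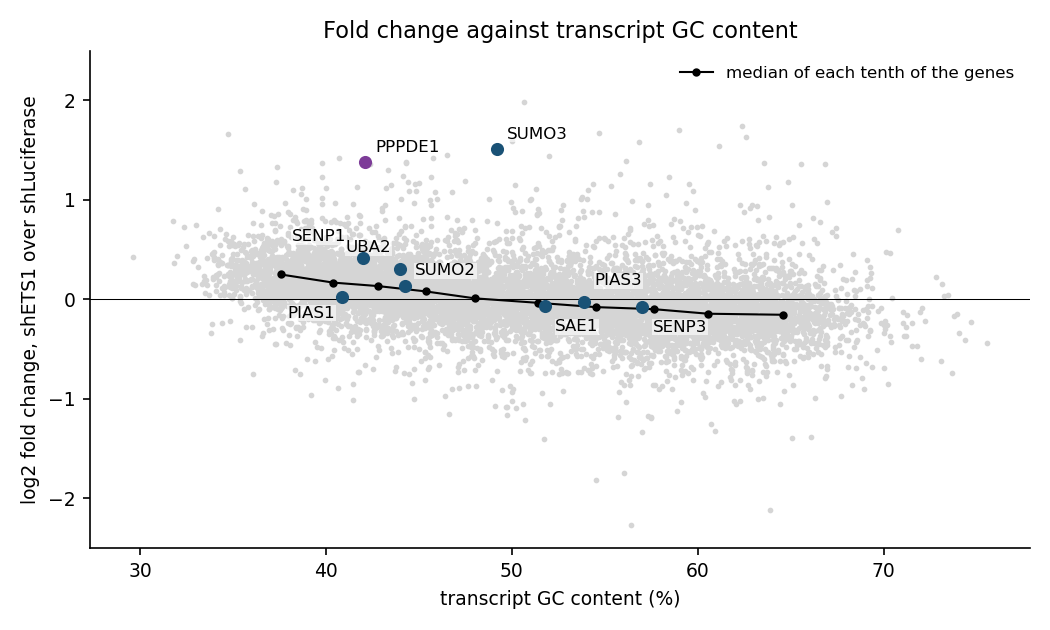
Log2 fold change of shETS1 over shLuciferase (vertical axis) against transcript GC content in percent (horizontal axis) for 9735 of 9737 tested genes with a mean of at least 1 FPKM, 2 lying outside the axes. Blue points are the 8 chosen SUMO genes, the purple point is PPPDE1, and the black line joins the medians of the GC deciles. SUMO3 and PPPDE1 lie far above the line, while SENP1, UBA2, SUMO2 and PIAS1 follow its left end more closely.

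Promoters were searched for letters that ETS factors recognise, since the compared cells differ in the level of such a factor. Promoter windows from RefSeq (GRCh38.p14, short windows that end just after each listed start) were matched by symbol for 7 of the 8 genes, all but SAE1. The ETS core GGAA, searched on both strands, occurs in 95.5% of all 35116 windows and in every window of the 7 genes. The longer form CCGGAAG, which contains that core, occurs on either strand in 10.3% of all windows. It was found in the window of UBA2 and in 2 of 3 overlapping windows of SENP1, and not in those of SUMO3, SUMO2, PIAS1, PIAS3, SENP3 or DESI2. The matches are shown on the strand of the gene, with capitals for the match, which reads as the reverse complement of the searched letters.
UBA2, chr19:34428362-34428388, plus strand: cccccacccgCTTCCGGccgcggctcg
SENP1, chr12:48106112-48106138, minus strand: cctagcgactCTTCCGGtgctgtgaag
These matches describe letters and not binding, and no binding of ETS1 was measured here. As given above, neither UBA2 nor SENP1 passed the authors' test.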

How the data were processed

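RNA of HEYA8 cells with an ETS1 hairpin (3 samples) or a luciferase hairpin (3 samples) was sequenced. Per the submitters' processing notes the tools were Cufflinks 2.1.1, SAMtools 0.1.18, Bowtie2 2.0.6 and TopHat2 2.0.7, and the build was hg19. What each tool did, the annotation and the scaling between libraries are not stated there. No strand-marking step is described in the labels' protocols. Per the file headers, the deposited table gives 1 FPKM value per gene and group, a p-value and a q-value, and a score (the test statistic) that was left unused. Benjamini-Hochberg values computed from the deposited p-values of the 11952 tested rows differed from the deposited q-values by at most 5.16e-07.

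Log2 ratios of shETS1 over shLuciferase were computed from the deposited FPKM without a pseudocount (pandas 2.3.3, numpy 2.4.6). A gene was called where its deposited q-value did not exceed 0.05. Medians cover tested rows with a mean of at least 1 FPKM. The files used hold no value per sample, so tests on samples, planned in case they did, and leave-one-out fits do not apply. Loci are those of the table, on hg19, counted from 1. GC content, coding sequences and shared 50-base windows come from GENCODE 29 (GRCh38), joined by gene symbol, with the principal transcript of each gene; 91.2% of the expressed tested genes had a GC value. Coding sequences were aligned globally with Biopython 1.88. The adjustment and the GC trend were tested on simulated data.

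The 8 genes and all lists were chosen with earlier results of these data known. A few listed genes are not reported here and were left out of the list counts. Named by rule are the 8 genes, ETS1, genes of the SUMO list that were called or had an absolute log2 fold change of at least 0.5, the 4 largest changes among the other ubiquitin-like genes, called neighbours of SUMO3 and the 3 rows nearest to it in pattern. Other list members, UBE2G2, PTTG1IP and COL6A2 were named after their values were seen. Alternatives were other thresholds, pseudocounts, scalings and windows, and the removal of the GC trend.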

Additional observations from a re-analysis of the deposited data

How the results depend on the processing

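The log2 fold change of SUMO3 lay between 1.49 and 1.56 with 1 or 0.1 FPKM added, after subtracting the median of expressed rows (0.02), with upper quartiles set equal and with the GC trend removed. The counts of 1 called among the 8 genes and 2 called on the pathway list were the same at q-values of 0.01, 0.1 and 0.2 and when adjusted over rows with a mean of at least 1 FPKM. These thresholds left no room for change. The called genes had q = 0.00964 in the authors' test, and the smallest q among the others on the list was 0.974 (SENP2). The count of 1 called neighbour was 0 within 1 Mb and 2 over the whole of chromosome 21, as wider or narrower windows hold more or fewer genes. The row added over the whole chromosome, SLC37A1, was called lower in shETS1. The alternative planned for the SUMO3 share is not reported here. For the other 7 genes and PPPDE1, with settings chosen after seeing the data, 23 of 32 values moved by under 0.05 and 9 by more. The median and upper-quartile settings subtract 1 constant from every gene, 0.0151 and -0.0484. Both are under 0.05 in size, so values under these settings could not move by more. All 9 larger moves came with 1 FPKM added or the GC trend removed. PIAS3 was also at 0.02 with upper quartiles set equal. No paired analysis was possible because the table holds a single value per group. For the same reason leaving out replicates was not run, and the replicate error of every level is unknown.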
